A study of Mus musculus with 7 samples.

Results

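The genes described here are 7 genes of cholesterol synthesis in mouse liver, and the data are the places near them where the retinoic acid receptors RARα and RARβ and their partner RXRα were called as bound. The set comprised Srebf2, Hmgcs1, Cyp51, Sqle, Fdft1, Lss and Dhcr7, 7 of the 21536 protein-coding genes with a known strand. They were chosen by name, with earlier results of these data known, so the shares below are not those of a blindly picked set. Every peak whose midpoint lay in the gene span or within 50 kb of it was assigned to the gene. The set was named for synthesis and uptake of cholesterol, but its members are 1 transcription factor and 6 enzymes of synthesis, and no gene of uptake is among them. ChIP-seq, which sequences the DNA pulled down with an antibody against a protein, had been carried out on liver of male C57BL/6 mice of 3 months on a control diet or on a diet with retinoic acid (RA). All mice were wild type. The groups were RARα, RARβ and RXRα on each of the 2 diets, with 1 library in each and an input library that was not analysed here. The labels give 1 day on the RA diet, the study's methods give a longer feeding time without naming the assay, and how many animals stood behind a library is not stated. Because each group held 1 library, no difference below has a replicate check and no test was made. Whole liver was used, so binding in hepatocytes and in other liver cells cannot be told apart.

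Cholesterol is built from acetyl-CoA through mevalonate, farnesyl pyrophosphate, squalene and lanosterol, and the liver is a main site of this synthesis. Srebf2 encodes SREBP-2, a membrane-bound transcription factor that is cut and sent to the nucleus when sterols are low and switches on the enzymes. Hmgcs1 makes HMG-CoA in the cytosol, Fdft1 joins farnesyl units to squalene, Sqle oxidises squalene, Lss closes the rings to lanosterol, Cyp51 removes a methyl group from lanosterol, and Dhcr7 performs the last step to cholesterol. RAR binds DNA as a heterodimer with RXR at repeats of hexamers such as AGGTCA, and RXR also pairs with other receptors of liver such as LXR, PPARα and FXR.

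The 6 peak lists held 35521 peaks (RARα, control), 14968 (RARβ, control), 61128 (RXRα, control), 44296 (RARα, RA), 29467 (RARβ, RA) and 59624 (RXRα, RA). The score that the peak caller gave each peak rises with the confidence of the call and also with the depth of a library, and the read totals are not used here. A peak was therefore described by its score and by its place, the percent of its own list counted from the highest score, so that a small percent is a high place. The lowest score was 50 in every list, and the RARβ control list was the shortest by far.

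The promoters of 5 of the 7 genes were in the RefSeq table (GRCm38.p6), from 250 bases before to 50 bases after each start. They are shown because a peak of every list covered all 300 bases of 5 of these windows. Capitals mark the receptor hexamer AGGTCA with its variant forms GGGTCA as well as AGTTCA, the SREBP-type motif TCACNCCAC and the NF-Y motif CCAAT, each on either strand.
Srebf2: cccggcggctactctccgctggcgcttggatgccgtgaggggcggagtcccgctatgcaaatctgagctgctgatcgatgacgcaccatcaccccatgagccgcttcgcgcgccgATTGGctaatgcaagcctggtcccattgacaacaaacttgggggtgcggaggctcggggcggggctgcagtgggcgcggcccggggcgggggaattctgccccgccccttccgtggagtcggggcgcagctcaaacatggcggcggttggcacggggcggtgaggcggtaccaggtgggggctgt
Hmgcs1: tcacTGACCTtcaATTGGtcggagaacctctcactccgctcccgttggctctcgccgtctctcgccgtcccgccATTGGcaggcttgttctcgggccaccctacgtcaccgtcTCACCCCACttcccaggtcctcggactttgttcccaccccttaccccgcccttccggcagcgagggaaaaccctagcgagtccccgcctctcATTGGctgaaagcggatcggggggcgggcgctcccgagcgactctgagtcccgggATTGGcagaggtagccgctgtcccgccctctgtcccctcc
Cyp51: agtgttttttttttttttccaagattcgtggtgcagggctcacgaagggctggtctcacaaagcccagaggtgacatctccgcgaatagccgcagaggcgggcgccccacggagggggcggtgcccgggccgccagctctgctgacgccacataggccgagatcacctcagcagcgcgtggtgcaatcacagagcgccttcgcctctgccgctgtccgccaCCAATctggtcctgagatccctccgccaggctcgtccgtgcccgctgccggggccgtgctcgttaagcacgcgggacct
Lss: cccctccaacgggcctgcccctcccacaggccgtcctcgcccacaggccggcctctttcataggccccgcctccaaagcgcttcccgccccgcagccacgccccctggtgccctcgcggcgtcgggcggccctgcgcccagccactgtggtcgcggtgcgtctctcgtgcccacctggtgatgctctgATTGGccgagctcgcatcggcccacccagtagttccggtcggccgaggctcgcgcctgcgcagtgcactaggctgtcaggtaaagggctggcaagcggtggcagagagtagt
Dhcr7 outermost start: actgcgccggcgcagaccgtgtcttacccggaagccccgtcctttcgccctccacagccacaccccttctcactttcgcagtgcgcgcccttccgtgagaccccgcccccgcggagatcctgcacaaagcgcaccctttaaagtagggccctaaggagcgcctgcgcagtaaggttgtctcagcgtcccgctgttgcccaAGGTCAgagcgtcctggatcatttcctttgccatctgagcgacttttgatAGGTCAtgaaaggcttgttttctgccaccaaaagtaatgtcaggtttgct
Dhcr7 inner start: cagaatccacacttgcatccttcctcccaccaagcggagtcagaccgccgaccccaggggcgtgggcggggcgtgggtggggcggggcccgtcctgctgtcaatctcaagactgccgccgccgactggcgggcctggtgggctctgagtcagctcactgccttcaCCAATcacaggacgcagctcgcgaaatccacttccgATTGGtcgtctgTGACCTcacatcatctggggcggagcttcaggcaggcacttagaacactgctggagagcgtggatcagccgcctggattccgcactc
The first 4 windows lie at chr15:82147019-82147318 (Srebf2, plus strand), chr13:119690101-119690400 (Hmgcs1, plus strand), chr5:4104648-4104947 (Cyp51, minus strand) and chr10:76531355-76531654 (Lss, plus strand). Those of Dhcr7 lie at chr7:143822917-143823216 for the outermost start and at chr7:143829964-143830263 for a start 7047 bp further in, both on the plus strand. Peaks of all 6 lists covered the windows of Srebf2, Hmgcs1, Cyp51, Lss and the inner Dhcr7 start, whereas the outermost Dhcr7 window was covered in 5 lists and not in RARβ under control diet.

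AGGTCA stood in 4 of the 7 promoters of these genes, against 16.3% of all 32851 promoters in the table. It was in the Hmgcs1 window on the minus strand and in each Dhcr7 window, so the 4 promoters belong to these genes only. The outermost Dhcr7 window and the next one share part of their sequence. The copy in the next one lies in that part and is also counted in the outermost one. GGGTCA and AGTTCA were in none of the 7 (13.7% and 14% of all promoters). No window held 2 copies of AGGTCA as a direct repeat with 1, 2, 4 or 5 bases between them, an arrangement found in 0.0396%, 0.00913%, 0.0152% and 0.00913% of all promoters. TCACNCCAC was in 1 of the 7, that of Hmgcs1, against 1.24%, and CCAAT was in 5 of the 7, against 37.4%, with 4 copies in the Hmgcs1 window. The GC-box GGGCGG was in 6 of the 7 against 35.7%, and the member windows ran from 48.7% to 71.0% GC beside a median of 52.7%. These are matches of letters in a short window and show neither binding nor its lack.

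Each of the 7 genes had a peak within 10 kb of its outermost start in every list. Over all protein-coding genes that was so for 61.9%, 44.1% and 61.3% (RARα, RARβ and RXRα, control) and for 63.3%, 54.7% and 61.7% under RA. Such a peak in all 6 lists was found for 38.2%. This background was all 21536 protein-coding genes with a strand and was not limited to genes expressed in liver. Whether the members differ from other expressed genes was not tested. Within 1 kb of the start, a peak was called for 6, 5 and 6 of the genes in the RARα, RARβ and RXRα control lists and for 6 in each RA list. The shares of all genes within 1 kb were 45.9%, 33.1% and 40.1% on the control diet and 46.2%, 40.3% and 41.9% on the RA diet. In all 6 lists, 5 of the 7 genes had a peak within 1 kb, against 24.7% of all genes. The exceptions were Fdft1, whose nearest region in all lists lay 3.68 kb inside the gene, and Dhcr7, whose outermost start lacked a peak of RARβ on control diet. That outermost Dhcr7 peak, centred 327 bp upstream under RARβ RA, also lies 22 bp from the start of Nadsyn1, so the assignment to Dhcr7 is shared.

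**Figure D1:**
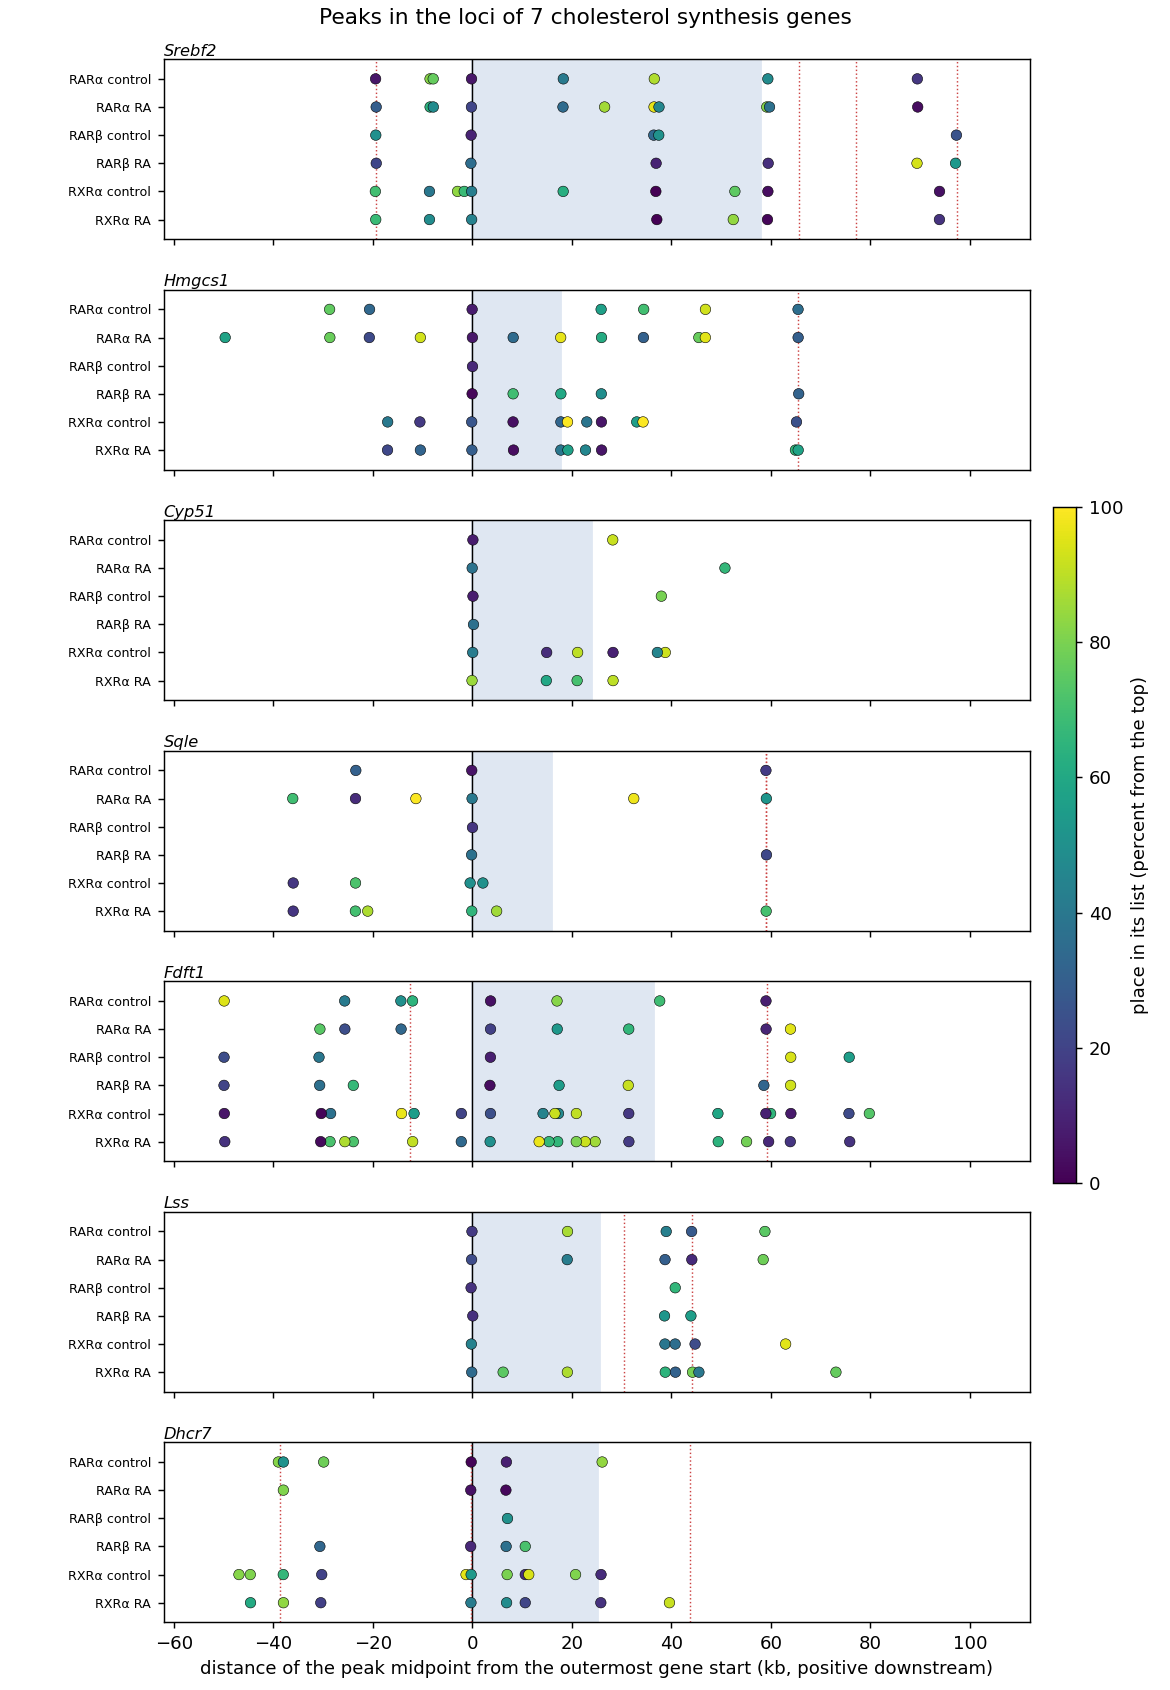
Each point is a called peak, plotted by the distance of its midpoint from the outermost gene start (kb, horizontal axis) for each of the 6 lists, with colour giving its place in the list (percent from the top), shading the gene span and dotted red lines the starts of other genes. A column of 6 points is seen at or near the start of each gene. The strongest RXRα peak lies more than 10 kb from the start on both diets, except at Hmgcs1, where it lies within 10 kb.

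Every gene had 1 region near its start that was called in all 6 lists. At Srebf2 it lay at chr15:82146409-82147761, centred 184 bp upstream, with scores of 419, 182 and 170 for RARα, RARβ and RXRα on control diet and 253, 127 and 165 on RA. The places in the list were 5.88%, 9.67% and 42.4%, then 20.3%, 35.5% and 44.5%. The Srebf2 start thus stood high in both RAR control lists, in the middle of both RXRα lists, and lower in both RAR lists under RA.

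The Hmgcs1 region (chr13:119689728-119690900, 37 bp upstream) had scores of 384, 169 and 263 on control diet and 412, 432 and 248 on RA for RARα, RARβ and RXRα. Its places were 7.52%, 11.4% and 26.8%, then 6.61%, 1.82% and 29.6%. Hmgcs1 carried the highest-placed start region of the set in the RARβ RA list.

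At Fdft1, the region in all lists lay inside the gene (chr14:63177369-63178654, 3.68 kb from the start). Scores were 461, 194 and 287 for RARα, RARβ and RXRα on control diet and 263, 348 and 145 on RA, and places were 4.43%, 8.49% and 24.2%, then 19.2%, 3.21% and 49.8%. RARα and RXRα were lower in their lists under RA and RARβ was higher.

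Sqle (chr15:59314228-59315689, 134 bp upstream) and Cyp51 (chr5:4104029-4105125, 120 bp downstream of the start) moved down for all 3 receptors. Sqle scores were 439, 146 and 142 on control diet and 152, 123 and 101 on RA, with places of 5.13%, 15.6% and 49.7%, then 40.4%, 37.3% and 65.3%. Cyp51 scores were 379, 201 and 174, then 159, 125 and 67.5, with places of 7.80%, 7.91% and 41.6%, then 38.3%, 36.4% and 85.0%. Among the 7 start regions, these genes had the largest falls in place in the RARα list.

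At Lss (chr10:76530787-76532072, 136 bp upstream), scores were 264, 154 and 162 on control diet and 235, 203 and 215 on RA, and places were 17.1%, 14.1% and 44.4%, then 22.9%, 13.9% and 34.6%. Dhcr7 had its region in all lists at the inner start (chr7:143829284-143830753, 6.85 kb from the outermost start), with scores of 365, 75.9 and 73.4, then 561, 125 and 151. Its places were 8.60%, 50.3% and 79.9% on control diet and 2.12%, 36.5% and 48.1% on RA. This inner region of Dhcr7 was the 1 region of the 7 that was placed higher under RA for all 3 receptors. By rank number the RARβ change turned, to 3213 ranks lower under RA in the longer list. At the outermost Dhcr7 start the RARα peak went the other way, from a score of 659 (1.08%) to 460 (4.61%), and the RXRα peak from 129 (53.7%) to 178 (41.6%).

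**Figure D2:**
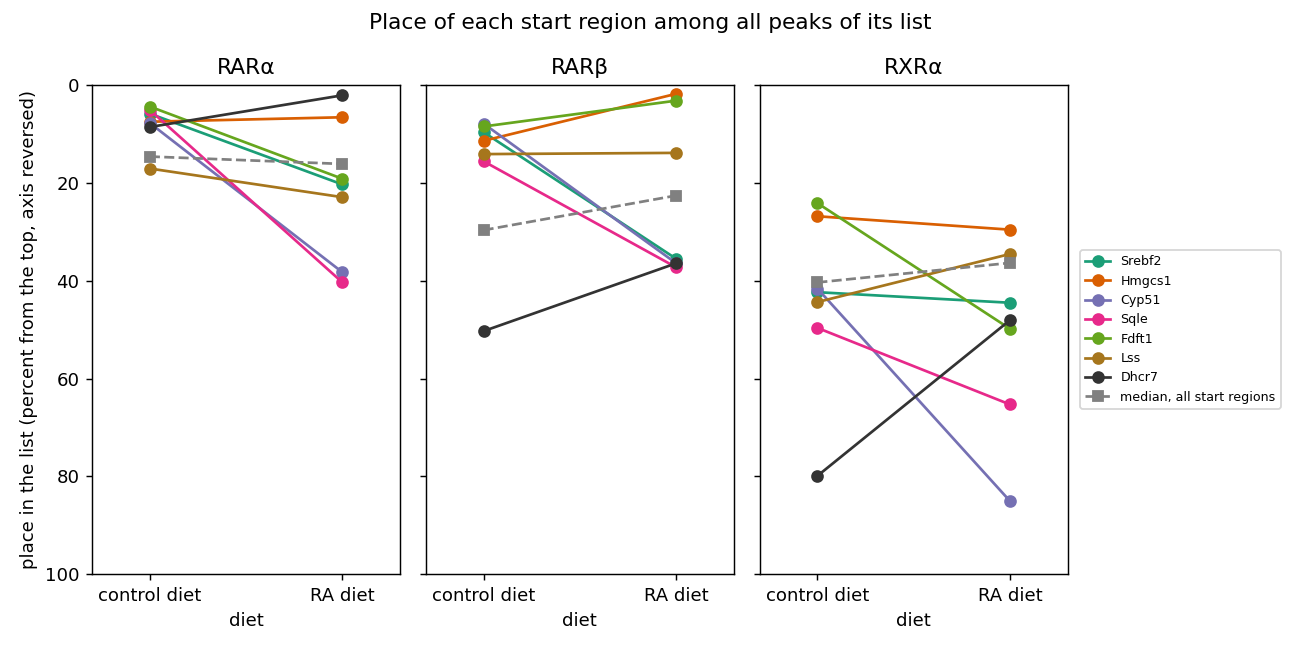
Each line joins the place of a gene's start region in the control list and in the RA list (percent of all peaks of the list from the top, axis reversed so that high places are up), in 1 panel per receptor with 1 library per point, and the dashed grey line joins the medians of all start regions called in all 6 lists. Srebf2, Cyp51 and Sqle go down in each panel, the inner region of Dhcr7 goes up in each, and RARα places lie above RXRα places.

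Start regions called in all 6 lists were found for many genes, 5828 regions in all, and give the background for these values. The median place of the 7 members was 7.52%, 11.4% and 42.4% (RARα, RARβ, RXRα) on control diet, beside 14.6%, 29.7% and 40.4% over all 5828. Under RA the members' medians were 20.3%, 35.5% and 48.1%, beside 16.1%, 22.6% and 36.4%. At these regions the members were thus above the general median for both RARs on control diet and below it for each receptor under RA. The comparison under RA depended on the peaks taken. With the peak nearest to each outermost start, the members' medians under RA were 20.3%, 13.9% and 41.6% (RARα, RARβ, RXRα). Nearest peaks over all protein-coding genes with one within 10 kb had medians of 25.9%, 34.1% and 47.7%. By that measure the members were above the general value for each receptor under RA. On control diet the nearest peaks gave 5.88%, 11.4% and 42.4%, beside 24.03%, 34.1% and 50.4%. RARα was placed higher than RXRα at 7 of 7 start regions on either diet, which held for 77.5% (control) and 75.4% (RA) of all such regions. RARβ was placed higher than RXRα at 7 of 7 on both diets as well, against 61.2% and 66.8%.

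Under RA, 5 of 7 start regions were placed lower for RARα, 3 of 7 for RARβ and 5 of 7 for RXRα, where 52.8%, 36.1% and 41.1% of all start regions were. Srebf2, Cyp51 and Sqle were lower for all 3 receptors, 3 of 7, against 8.41% of all, and the inner region of Dhcr7, 1 of 7, was higher for all 3 against 18.2%. The shifts, RA minus control with a positive value for a lower place, were 30.5, 28.5 and 43.4 percentage points at Cyp51 for RARα, RARβ and RXRα. They were 35.2, 21.7 and 15.6 points at Sqle and 14.5, 25.9 and 2.16 points at Srebf2, so that the RXRα shift at Srebf2 was small. At the inner Dhcr7 region the shifts were -6.48, -13.8 and -31.8 points.

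The best RXRα peaks of most loci lay away from the start, as they did for most genes. For 1 of the 7 genes on either diet, Hmgcs1, the highest-scoring RXRα peak lay within 10 kb of the start, and among all genes with an RXRα peak in their locus that was so for 21.0% on control diet and 21.5% on RA. For RARα this was so for 6 of 7 on control diet and 3 of 7 on RA, beside 33.7% and 30.5%, and for RARβ for 7 of 7 and 5 of 7, beside 35.1% and 31.5%. The highest RXRα peak of the set was inside Srebf2, 36.9 kb from the start on control diet and 37.1 kb on RA, with scores of 1348 and 1490 and places of 0.303% and 0.253%. The merged region, chr15:82183031-82185527, was called in all 6 lists. The host of the microRNA miR-33 is Srebf2 as well. The RXRα peaks nearest to Mir33 had low places, 75.1% on control diet (1.88 kb away, score 80.6) and 83.8% on RA (1.56 kb away, score 69.2). The nearest peak of any RAR list lay 8.29 kb away (RARα, RA).

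Further RXRα peaks called on both diets were found at Hmgcs1, Fdft1, Sqle and Dhcr7. Inside Hmgcs1, 8.2 kb from the start, RXRα scored 708 on control diet and 801 on RA, in a region also called for RARα and RARβ under RA only. At Fdft1, 30.4 kb upstream, the scores were 973 and 881, and the nearest start was that of Neil2. Sqle had an upstream peak at 36.0 kb with scores of 381 and 398, and Dhcr7 had downstream peaks at 25.9 kb with 432 and 417. The start nearest to these Dhcr7 peaks was that of Acte1. The best RXRα place per gene had a median of 9.29% on control diet and 14.4% on RA. The RXRα peak nearest to the start had a median of 42.4% and 41.6%. The best peak of a locus cannot be placed lower than its nearest one, so the direction of this gap was fixed in advance.

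The loci held 260 peaks over the 6 lists, 72 inside the genes, 100 upstream and 88 downstream. By list they numbered 39, 17 and 65 for RARα, RARβ and RXRα on control diet and 47, 29 and 63 on RA. The nearest protein-coding start was that of the assigned gene for 123 of the 260 peaks, and 43 peaks lay within 1 kb of the start of another gene. Such genes were Ccdc134 near Srebf2, Nim1k near Hmgcs1, and Washc5 and Nsmce2 near Sqle. Others were Ctsb and Neil2 near Fdft1, Ftcd near Lss, and Nadsyn1 and Mrgpre near Dhcr7. The median number per gene was 6, 2 and 10 on control diet and 6, 4 and 8 on RA, beside 4, 1 and 5 and 4, 3 and 5 over all genes. Per 100 kb of locus, the members had a median of 4.79, 1.59 and 6.32 on control diet and 5.17, 3.19 and 6.37 on RA, beside 2.66, 0.957 and 3.77, and 3.07, 1.92 and 3.69, over all genes. Fdft1 had the most peaks, 67 over the lists with 18 and 20 for RXRα, and Cyp51 the fewest, 17 over the lists.

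**Figure D3:**
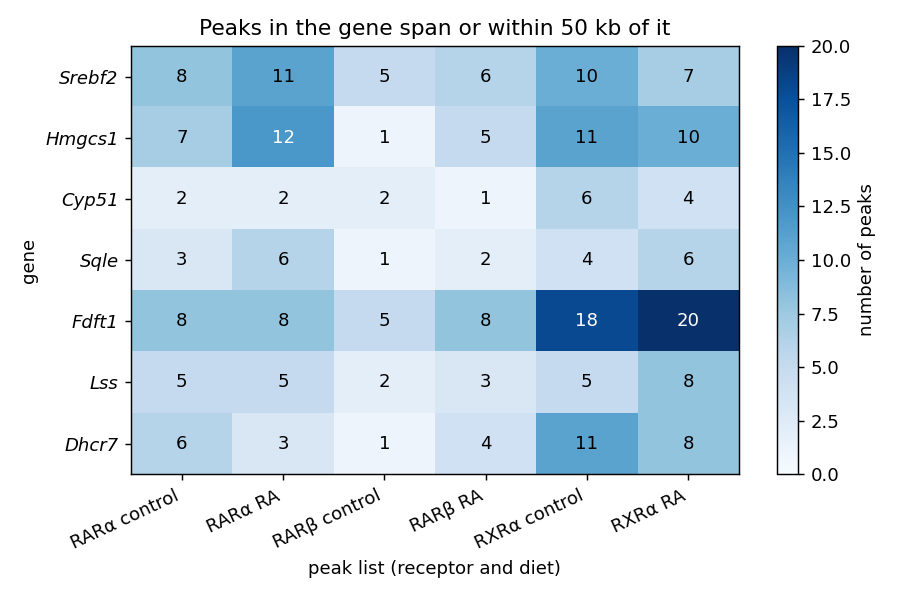
Each cell gives the number of peaks in the gene span or within 50 kb of it, for each of the 7 genes (rows) and 6 lists (columns, receptor and diet, 1 library each), with darker blue for more peaks. Fdft1 has 18 and 20 RXRα peaks, and Hmgcs1, Sqle and Dhcr7 each have 1 RARβ peak on the control diet.

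A peak was taken as shared between lists when the overlap was at least 25% of the width of each peak. Of the 39 RARα peaks on control diet, 82.1% (Wilson 95% interval 67.3 to 91.0) were shared with the RA list, and of the 17 RARβ peaks 70.6% (46.9 to 86.7) were. Of the 63 RXRα peaks on RA, 79.4% (67.8 to 87.5) were shared with the control list. The shares over the whole lists were 84.2%, 75.8% and 80.3%, each inside the interval of the members. In the other direction, 70.2% of RARα and 41.4% of RARβ peaks on RA and 76.9% of RXRα peaks on control diet were shared, beside 68.4%, 38.2% and 78.7% over the whole lists. The intervals cover counting error only.

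Between receptors, 69.2% (53.6 to 81.4) of RARα peaks on control diet were shared with RXRα and 76.5% (52.7 to 90.4) of RARβ peaks were, while 43.1% and 20% of RXRα peaks were shared with RARα and RARβ. Under RA these shares were 63.8% (49.5 to 76.0) and 93.1% (78.0 to 98.1), and 46.0% and 42.9% of RXRα peaks. RARβ peaks were shared with RARα for 58.8% (36.0 to 78.4) on control diet and 79.3% (61.6 to 90.2) on RA, and RARα peaks with RARβ for 25.6% and 51.1%. For the longer list of each pair, the whole-list shares of RXRα peaks with RARα and RARβ were 36.0% and 19.0% on control diet and 45.5% and 44.8% on RA, and those of RARα with RARβ were 31.0% and 48.8%. The whole-list shares of the RARs with RXRα were 61.1% and 77.8% on control diet and 61.7% and 89.9% on RA, and those of RARβ with RARα were 74.2% and 72.1%, all within the members' intervals.

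Merging the peaks of all lists gave 91 regions in the loci. Of these, 9 (9.89%) were called in all 6 lists and 29 (31.9%) in 1 list only, beside 9.76% and 29.4% of the 87787 regions of the whole lists. The 9 were the 7 start regions, the intragenic Srebf2 region and the start of Ccdc134, 19.4 kb upstream of Srebf2. RXRα alone was called in 33 regions (36.3%), RAR alone in 16 (17.6%) and both in 42 (46.2%), beside 36.3%, 20.1% and 43.6% of all regions. The division among receptors near these genes was thus close to that of the lists as a whole.

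Regions with a score of at least 100 on 1 diet and no call on the other were counted next. For RARα they numbered 0 of 22 on control diet and 2 of 28 on RA, beside 2.82% and 11.9% of all such regions. For RARβ they numbered 0 of 8 and 7 of 18, beside 3.92% and 41.8%, and the RARβ RA list was the longer one. For RXRα they numbered 4 of 43 and 0 of 37, beside 7.62% and 6.30%. The 2 RARα regions were both at Hmgcs1, 49.7 kb upstream (score 104, nearest start Ccl28) and 8.24 kb inside (score 173).

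The 7 RARβ regions called under RA only included 59.4 kb downstream of the Srebf2 start (score 205, nearest start Shisa8). At Dhcr7 they were the outermost start (221) and the region at -30.3 kb from it (133, nearest start Mrgpre). At Hmgcs1 they lay at 25.97 kb (101) and at 65.2 kb, by the Nim1k start (137). The others were by the Washc5 start near Sqle (167) and by the Ctsb start near Fdft1 (135). Each of the 7 was also called for RXRα on at least 1 diet. Over the whole lists, 89.9% of RARβ peaks on RA were shared with RXRα on that diet alone. The 4 RXRα regions called on control diet only lay at 18.3 kb of Srebf2 (105), 33.0 kb of Hmgcs1 (123), 37.2 kb of Cyp51 (158) and 2.13 kb of Sqle (140).

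Among shared peaks, a change of place of at least 25 percentage points was counted. For RARα, 4 of 32 were that much lower under RA and 4 that much higher, beside 5.93% and 16.6% of all shared peaks. For RARβ, 3 of 12 were lower and 1 was higher, beside 10% and 26.6%, and for RXRα 9 of 50 were lower and 4 higher, beside 9.37% and 9.56%. The median change was -3.34, -2.21 and 2.45 points in these loci and -4.28, -6.01 and -0.227 points over all shared peaks (RARα, RARβ, RXRα).

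Of the 4 RXRα peaks of Cyp51 shared between diets, 3 were lower under RA by at least 25 points and 1 was higher. The peak 28.3 kb downstream went from a score of 505 (place 9.29%) to 61.4 (90.0%), the intragenic peak at 14.9 kb from 431 (12.5%) to 116 (59.4%), and the start from 174 (41.6%) to 67.5 (85.0%). The intragenic peak at 21.2 kb went the other way, from 60.5 (90.1%) to 90.5 (70.5%). All 4 peaks were thus still called on the RA diet, 3 of them at lower places.

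Of the other RXRα peaks that were lower under RA by at least 25 points, some lay near starts of neighbours. These included the peaks at 44.8 kb of Lss by Ftcd (299 to 75.9) and at 65.2 kb of Hmgcs1 by Nim1k (279 to 120). In both cases the wide control peak was overlapped by 2 RA peaks. The stronger RA peak by Ftcd scored 186 (place 39.9%, from 22.8% on control diet), a fall of less than 25 points, and the weaker one by Nim1k scored 98.0. Upstream of Fdft1, at 28.5 kb, the score went from 196 to 89.3. Of the 4 RXRα peaks that were higher, the largest, 59.9 kb downstream of Fdft1 (98.6 to 485), was a control peak beside a stronger one (516), and 1 wide RA peak overlapped both, and another did so for the pair at 17.3 and 16.6 kb of Fdft1. For RARα, the 4 higher places included those inside Lss at 19.1 kb (59.6 to 146) and downstream of Hmgcs1 at 34.4 kb (77.7 to 190). The 4 lower RARα places were the starts of Sqle (439 to 152) and Cyp51 (379 to 159) and 2 further peaks. These lay at 59.0 kb of Sqle by Washc5 (261 to 118) and 38.0 kb upstream of Dhcr7 (111 to 69.0).

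**Figure D4:**
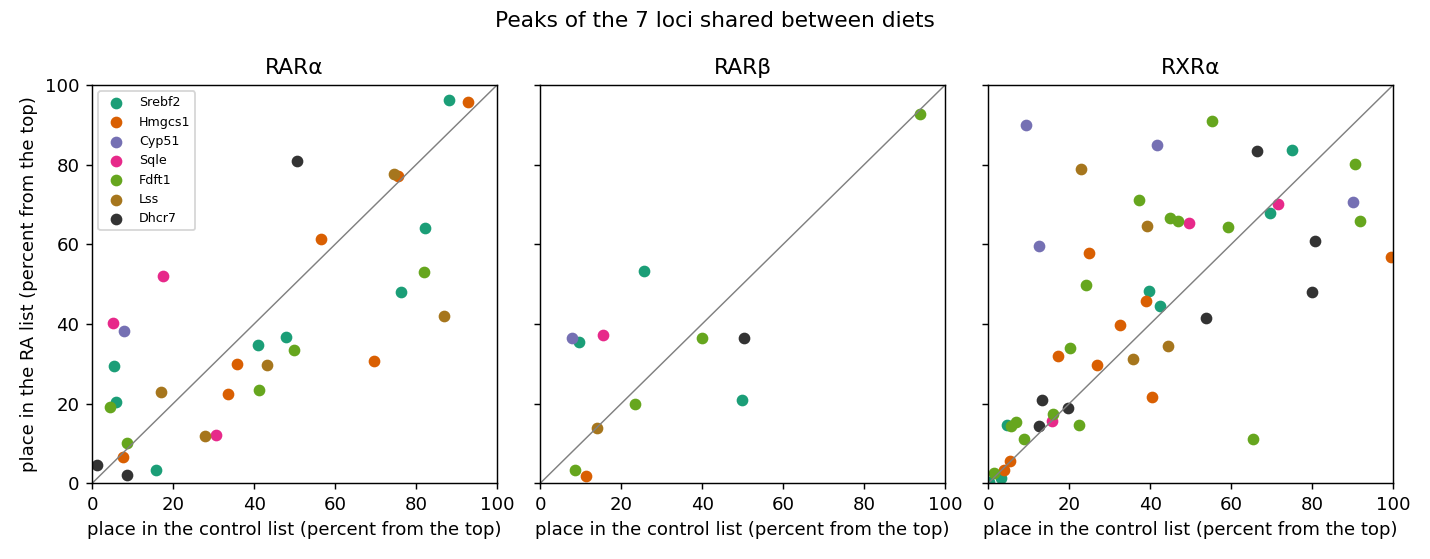
Each point is a peak of the 7 loci shared between diets, with its place in the control list (horizontal axis) and in the RA list (vertical axis, both in percent from the top), in 1 panel per receptor and with the line of equal place. Points above the line are placed lower under RA, and 3 RXRα peaks of Cyp51 lie far above it.

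The rest of the pathway was described by a list of 24 genes, comprising 13 further synthesis genes, 5 genes of SREBP processing and 6 genes of uptake and lysosomal release. A peak within 10 kb of the start was called for 24, 18 and 21 of them (RARα, RARβ, RXRα) on control diet and for 24, 23 and 23 on RA. In all 6 lists it was called for 18 of 24, made up of 9 of 13 synthesis, 4 of 5 processing and 5 of 6 uptake genes, where the general share is the 38.2% given above. Those that lacked one in 1 or more lists were Acat2, Ebp, Nsdhl and Pmvk in synthesis, Mbtps2, the site-2 protease of SREBP, in processing, and Lipa, the lysosomal acid lipase, in uptake and release. The highest place in synthesis belonged to Idi1, the isomerase of isopentenyl pyrophosphate (RARα control, score 750, 0.586%), and in processing to Insig1, which retains SREBP in the endoplasmic reticulum (RARα RA, 832, 0.397%). In uptake and release it was Npc2, which carries cholesterol in the lysosome (RARβ RA, 646, 0.604%). The median place of the best peak over the genes with one was 6.56%, 18.1% and 29.6% on control diet and 6.83%, 21.6% and 38.7% on RA. The medians over all protein-coding genes with a peak within 10 kb were taken from the peak nearest to the start, not from the best. They were 24.03%, 34.1% and 50.4%, then 25.9%, 34.1% and 47.7%. The best peak of a gene cannot be placed lower than its nearest, which favours the pathway genes. These values are therefore not a like-for-like background, and the size of any lead of the pathway genes cannot be read from them.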

How the data were processed

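ChIP-seq of mouse liver was made for 3 receptors on 2 diets, 1 library each. Per the labels and the study's methods, the authors mapped 35 bp reads (Bowtie 0.12.7), and MACS 1.4.1 was their peak caller. The values used are the score of each deposited peak, as the authors' peak caller wrote it, and peak positions on GRCm38. Here, peaks were ranked within each list, assigned to a gene by midpoint, and merged over lists. Groups came from the labels, and with 1 library per group no test was fitted. Gene spans and promoters came from RefSeq (GRCm38), and strand from the RefSeq promoter table (17492 genes) or, by name, from GENCODE M1 (4044 genes). Shares have Wilson 95% intervals, which cover counting error only. Depth per library was not used: the lists give no read totals, and the study's text gives totals for RXRα and RARα without naming the diet. Scripts were run in Python 3.11.15 (numpy 2.4.6, pandas 2.3.3, scipy 1.17.1) and tested on simulated peaks. The genes named were the 7 members, their best and nearest peaks, and their regions called on 1 diet with a score of at least 100. Of the 24 other pathway genes, those without a peak near the start in some list and the best of each group were named. The members and lists were chosen with earlier results of these data known, and the shift limit of 25 points, and the shared peaks named under it, after the values were seen. Alternatives changed the flank, distance, score limit, list length, overlap and gene set. 1 further gene of the pathway list, the input library and sequences of distal peaks were not analysed here.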

Additional observations from a re-analysis of the deposited data

Results flagged for a closer look

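Some values changed in opposite directions between receptors from control to RA diet. Each rests on 1 library per diet, and the difference between receptors was not tested. The number of peaks in the 7 loci differed by 8 for RARα and 12 for RARβ and by -2 for RXRα, RA minus control, and the RARα and RARβ lists were themselves longer under RA. The place of the start region, where a positive value is a lower place under RA, changed by -0.912, -9.60 and 2.74 percentage points at Hmgcs1 for RARα, RARβ and RXRα. At Fdft1 the changes were 14.7, -5.28 and 25.7 points, and at Lss 5.85, -0.250 and -9.82 points.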

How the results depend on the processing

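No paired analysis was possible because each group held 1 library. Of 114 comparisons of 28 counts and shares with an alternative, 68 stayed within the limit set for a change and 46 did not, and no comparison had a test. In the order RARα, RARβ, RXRα on control diet and then on RA, the locus peaks numbered 19, 9, 35, 22, 16 and 33 with a flank of 10 kb, and 22, 8, 43, 28, 18 and 37 with a score of at least 100. They numbered 16, 8, 34, 22, 12 and 31 where the nearest start had to be that of the gene. With all lists shortened to 14968 peaks, the counts were 18, 21, 17, 18 and 16 for all but the RARβ control list. At that length 2 and 1 of the 7 genes had an RXRα peak within 10 kb on control diet and RA. For the 24 other genes the numbers were 9 and 6, so the RXRα counts near starts depend on list length. A RARα peak on RA was within 10 kb for 5 of the 7 genes, and the other RAR lists kept 7 of 7. The shares of all genes at that length are not given here, so these counts have no background. The share of peaks kept between diets was 95.5% for RARα and 87.5% for RARβ with a score of at least 100, and for RXRα 66.7% with an overlap of 50%, 91.9% with that score and 93.8% at equal length. Between receptors on control diet, RARβ with RARα gave 88.9% with a flank of 10 kb, RARα with RXRα 51.3% with an overlap of 50%, 84.2% with that flank and 16.7% at equal length, and RARβ with RXRα 29.4% at equal length. Under RA, RARβ with RARα gave 50% at equal length, RARα with RXRα 46.8% (overlap of 50%), 77.3% (flank of 10 kb), 46.4% (score of at least 100) and 5.88% (equal length), and RARβ with RXRα 100% (flank) and 38.9% (equal length). Regions in all 6 lists numbered 5 with a score of at least 100 and 0 at equal length. Measures chosen after seeing the data were the number of the rank, the score and any annotated start. By rank number 3 of the 21 changes of place turned direction, to 256 ranks lower under RA at Hmgcs1 for RARα, 1976 at Lss and 3213 at Dhcr7 for RARβ, while none turned by score. With any annotated start, 6 genes had a peak within 1 kb in every list. The gene without one, Fdft1, had no start in the promoter table. Only its outermost start could be used, so this measure could not change its result.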
